A study of Mus musculus with 6 samples.

Results

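The p200 genes, also called the Ifi200 or PYHIN genes, form a cluster on mouse chromosome 1 and were examined here in the lacrimal gland, the exocrine gland that secretes the watery part of the tear film. Members were the 9 genes Aim2, Ifi213, Ifi209, Ifi207, Ifi204, Mndal, Ifi211, Ifi203 and Ifi205, taken by symbol from a table of 50686 genes. They were chosen by their counts in this same comparison of genotypes, which were already known, so their differences between genotypes are given as a description without a test. Total RNA was measured in 6 libraries, 3 from wild-type and 3 from Eda-/- glands, and every sample carried an age of 13 weeks and the strain label C57BL/6. The Eda-/- samples, titled Tabby, lack ectodysplasin A, a TNF-family signal needed for hair, teeth and exocrine glands to form. No treatment, transgene or Cre driver is named for any group, the mutation is not restricted to a cell type, and whether the groups were littermates is not given in the sources used here.

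Proteins of the p200 family bind DNA through a HIN domain, and most also carry a pyrin domain through which they join other proteins. Many of their genes are induced by interferon through transcription factors, among them Stat2 and Irf9, that bind the interferon-stimulated response element of promoters, and the genes are known best from macrophages and other blood cells. Aim2 detects DNA in the cytosol and assembles an inflammasome with the adaptor Pycard and the protease Casp1, whereas Ifi202b, which lacks a pyrin domain, restrains Aim2.

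In the GENCODE annotation of GRCm38 the cluster ran over chr1:173350879-174031810, a span of 680.9 kb from Aim2 to Ifi205. It held 14 p200 genes among 22 annotated genes. Beside the 9 members these were Ifi206, Ifi214, Ifi208, the pseudogene Ifi203-ps and Ifi202b. The others were Cadm3, which encodes a cell adhesion protein and overlaps the start of Aim2, 2 miRNA genes and 5 pseudogenes.

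Promoter sequences are shown because a motif of the interferon response lies in most of those found for the members. RefSeq promoters (GRCm38.p6, 250 bases before to 50 bases after the start) were found for 8 of the 9 members and for 12 of the 14 p200 genes. They were searched on both strands for the interferon-stimulated response element, written as the half-site GAAA, any 2 bases and GAAA again. The motif was present in 6 of 8 members (75.0%) and in 3.99% of the 27025 genes with a promoter in the table. In the 30-base windows that follow, read 5′ to 3′ on the strand of the gene, capitals mark the motif, or in Ifi209 the closest run of letters.
Ifi213: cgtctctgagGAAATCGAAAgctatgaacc
Ifi209: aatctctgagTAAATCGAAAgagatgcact
Ifi207: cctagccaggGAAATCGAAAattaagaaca
Mndal: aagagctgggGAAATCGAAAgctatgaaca
Ifi211: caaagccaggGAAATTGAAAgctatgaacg
Ifi203: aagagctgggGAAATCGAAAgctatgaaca
Ifi205: ccaggccaggGAAATTGAAAgctatgaaca

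The windows stand at chr1:173599326-173599355 (minus strand) for Ifi213, chr1:173630770-173630799 (plus) for Ifi209, chr1:173741831-173741860 (minus) for Ifi207 and chr1:173880204-173880233 (minus) for Mndal. Those of Ifi211, Ifi203 and Ifi205 stand at chr1:173913064-173913093, chr1:173942508-173942537 and chr1:174031870-174031899, all on the minus strand. The 10-base run GAAATCGAAA was picked as the commonest match in the family's own promoters. It was shared by 4 members and by 7 p200 genes in all. It was present in 16 of the 32851 promoters of the table (0.0487%), and these 16 include those of the family. Counted from 1 at the 5′ end of that run, Ifi211 and Ifi205 carried C6T and still held the motif, while Ifi209 carried G1T and did not. The motif began 35 bases before the start in Ifi203, 36 in Mndal, 37 in Ifi211, 41 in Ifi207, 73 in Ifi213 and 134 in Ifi205. These are RefSeq starts, and several, such as those of Mndal, Aim2, Ifi203 and Ifi205, lie within the longer GENCODE gene models. Ifi203 had another RefSeq start, and its promoter, at chr1:173942623-173942922, did not hold the motif. Ifi205 held another match, TTTCACTTTC on the opposite strand, that began 23 bases after the start, and the other RefSeq start of Mndal held TTTCTCTTTC.

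Several promoters were near copies of each other, so the shared letters are not independent between genes. Those of Mndal and Ifi203 matched over 299 aligned columns at 94.3% identity, and those of Ifi207 and Ifi211 over 297 columns at 87.5%. The promoter of Ifi209 matched that of Ifi214 over 300 columns at 95.7% identity, although Ifi214 held the exact run and Ifi209 did not. Aim2 did not hold this element, but it held GAGGAAGT, a motif bound by ETS factors, 113 bases before the start, as did 3.69% of genes. Ifi202b held neither of these motifs. It held the gamma-activated sequence TTCNNNGAA, present in 9.55% of genes, as TTCTCAGAA 148 bases before the start. No promoter of the family held more than 1 of these kinds of motif, so no matches of different motifs overlapped. A match is a description of the letters and was not tested as a binding site.

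The 250 bases before the start are given for Ifi213, among the members with the lowest ratios, for Ifi205, the member with the smallest standard error, and for Ifi202b, whose counts differed in the opposite direction. They lie on the minus strand at chr1:173599273-173599522, chr1:174031756-174032005 and chr1:173982845-173983094, and capitals mark the motif that each held.
Ifi213: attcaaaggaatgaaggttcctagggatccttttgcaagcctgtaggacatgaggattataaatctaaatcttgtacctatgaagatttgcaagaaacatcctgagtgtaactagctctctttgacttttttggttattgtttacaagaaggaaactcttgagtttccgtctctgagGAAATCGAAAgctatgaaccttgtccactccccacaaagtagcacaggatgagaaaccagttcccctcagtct
Ifi205: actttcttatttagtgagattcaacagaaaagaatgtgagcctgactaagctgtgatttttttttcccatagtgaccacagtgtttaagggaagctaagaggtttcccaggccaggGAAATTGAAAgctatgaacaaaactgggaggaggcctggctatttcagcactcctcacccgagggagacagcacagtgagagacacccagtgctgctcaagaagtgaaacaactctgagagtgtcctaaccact
Ifi202b: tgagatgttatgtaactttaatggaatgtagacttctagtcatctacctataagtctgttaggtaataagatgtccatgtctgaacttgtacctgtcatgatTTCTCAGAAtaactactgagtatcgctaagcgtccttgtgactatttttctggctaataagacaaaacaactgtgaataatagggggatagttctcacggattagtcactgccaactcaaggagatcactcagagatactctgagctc

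Libraries held between 11894395 and 15700899 counts, and 13178 genes passed the filter on low counts and were tested between genotypes with edgeR's quasi-likelihood test, with a Benjamini-Hochberg adjusted p of 0.05 as the threshold. Of these, 819 genes were called higher and 909 lower in Eda-/- glands, that is 6.21% and 6.9%. Counts of the mutated gene Eda were 41, 48 and 42 in wild-type 1, 2 and 3, against 2, 0 and 0 in Eda-/- 1, 2 and 3. The lacrimal acinar marker Aqp5, a water channel, was present in every library at 95.3 to 124.0 CPM, that is counts scaled to library size with TMM factors. The samples of a condition are given as biological replicates, and no 2 libraries of a group agreed within sampling noise.

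All 9 members had lower mean values in Eda-/- than in wild-type glands, with log2 fold changes of Eda-/- over wild-type from -2.18 to -0.90 and a median of -1.42, against a median of 0.0 over all tested genes. Summed over the 9 members, counts were 287, 477 and 689 in wild-type 1, 2 and 3 against 137, 131 and 147 in Eda-/- 1, 2 and 3. On the CPM scale this was 17.9, 28.1 and 44.2 in wild-type and 12.0, 12.3 and 11.5 in Eda-/- glands. The 3 Eda-/- libraries lay close together and below every wild-type library. Wild-type libraries spread widely, with the lowest sum in wild-type 1 and the highest in wild-type 3, 2.47 times as high. Group means were 30.1 ± 13.3 CPM (SD, n = 3) and 11.9 ± 0.411 CPM (SD, n = 3), a 2.53-fold difference. Without wild-type 3 it was 1.93-fold. In bulk tissue, fewer cells of a type and less RNA per cell cannot be told apart.

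Of the 9 members, 7 passed the filter on low counts and 6 of these stood past the threshold as lower in Eda-/- glands, where 6.9% of all tested genes did. The members were chosen with this contrast known, so nothing is read from that count. Ifi203 was tested and stood outside the threshold, and Aim2 and Ifi211 had too few counts to be tested. Ifi213 and Ifi209 passed the filter through their wild-type libraries alone, so they could only appear as lower. In 8 members all Eda-/- values lay below all wild-type values, as for 16.2% of all tested genes, and Ifi211 was the exception. By edgeR without the filter 7 members were called lower (3.51% of the genes fitted), and by DESeq2 6 (3.87% of the genes it tested). By limma-voom 4 members passed, without Ifi213 and Mndal. The number of members past the threshold was 2, 1 and 1 without Eda-/- 1, 2 and 3, and 7, 4 and 5 without wild-type 1, 2 and 3.

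Aim2, the cytosolic DNA sensor (ENSMUSG00000037860.15, chr1:173350879-173466040, plus strand), was close to the limit of detection. Its levels were 0.624, 0.353 and 1.16 CPM in wild-type 1, 2 and 3 and 0.349, 0.187 and 0.234 CPM in Eda-/- 1, 2 and 3, from 34 counts in wild-type and 9 in Eda-/- glands in all. The groups did not overlap, but wild-type 2 and Eda-/- 1 were almost equal. The ratio of counts summed by group and scaled to library size, wild-type over Eda-/-, was 2.72 (exact binomial 95% interval 1.28 to 6.44). Reads carry no molecular identifiers, so such intervals cover counting error only. The log2 fold change from a fit without the filter was -1.42 ± 0.58 (SE). None of the 31-base words of Aim2 exons occurred in another p200 gene, so its reads are separable from those of the family.

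Ifi204 (ENSMUSG00000073489.5, chr1:173747293-173766943, minus strand) encodes p204, a DNA-binding protein related to human IFI16 that takes part in DNA sensing and in macrophage differentiation. It had 2.81, 4.18 and 6.68 CPM in wild-type 1, 2 and 3 and 2.1, 1.87 and 1.17 CPM in Eda-/- 1, 2 and 3. Every wild-type library was above every Eda-/- library, with wild-type 1 nearest to the mutants. The means were 4.55 ± 1.96 and 1.71 ± 0.484 CPM (SD, n = 3 each), and the log2 fold change was -1.42 ± 0.34 (SE).

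Ifi205 (ENSMUSG00000054203.7, chr1:174011998-174031810, minus strand), a HIN domain gene known from macrophages, had the smallest ratio of wild-type 3 to wild-type 1 among the members, 1.47. Its levels were 4.12, 6.29 and 6.03 CPM in wild-type 1, 2 and 3 and 2.36, 3.0 and 2.88 CPM in Eda-/- 1, 2 and 3. The highest Eda-/- value was below the lowest wild-type value, and wild-type 3 did not stand out here. Means of 5.48 ± 1.19 and 2.75 ± 0.342 CPM (SD, n = 3 each) gave a log2 fold change of -1.0 ± 0.21 (SE). Ifi205 was the member that stayed past the threshold whichever library was left out.

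Ifi207 (ENSMUSG00000073490.10, chr1:173723427-173741747, minus strand) lies beside Ifi204. Its levels were 2.12, 4.53 and 6.16 CPM in wild-type 1, 2 and 3 and 0.873, 1.5 and 1.25 CPM in Eda-/- 1, 2 and 3. The groups were apart, and the gap between wild-type 1 and the highest mutant was smaller than the spread among wild-type libraries. Its log2 fold change was -1.82 ± 0.41 (SE).

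Ifi213 (ENSMUSG00000073491.10, chr1:173566283-173599274, minus strand) and Ifi209 (ENSMUSG00000043263.13, chr1:173630917-173647928, plus strand) had the lowest ratios. Ifi213 had 0.873, 1.76 and 3.47 CPM in wild-type 1, 2 and 3 and 0.524, 0.375 and 0.468 CPM in Eda-/- 1, 2 and 3. Ifi209 had 1.06, 1.41 and 3.08 CPM in wild-type 1, 2 and 3 and 0.524, 0.187 and 0.468 CPM in Eda-/- 1, 2 and 3. No Eda-/- library held more than 6 counts of either gene, and wild-type 3 held the highest value of both. Log2 fold changes were -2.12 ± 0.54 (SE) for Ifi213 and -2.18 ± 0.51 (SE) for Ifi209. Ifi209 shared 46.8% of its 31-base words with other p200 genes, chiefly Ifi214, and Ifi213 shared 25.6%, chiefly with Ifi208, so reads of these genes may have been split with their copies.

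Ifi203 (ENSMUSG00000039997.16, chr1:173920407-173942672, minus strand) and Mndal (ENSMUSG00000090272.7, chr1:173849126-173942491, minus strand), named for its likeness to human MNDA, overlap on 1 strand. Ifi203 had 3.12, 5.35 and 10.1 CPM in wild-type 1, 2 and 3 and 2.36, 2.62 and 2.5 CPM in Eda-/- 1, 2 and 3. Mndal had 2.62, 3.53 and 5.71 CPM in wild-type 1, 2 and 3 and 2.18, 1.87 and 2.26 CPM in Eda-/- 1, 2 and 3. In both genes the mutants lay within a narrow band and wild-type 1 lay just above it. The log2 fold change was -1.3 ± 0.48 (SE) for Ifi203 and -0.9 ± 0.28 (SE) for Mndal. Ifi203 stood outside the threshold although its ratio was lower than that of Mndal, and its standard error was the wider of the pair. Without wild-type 3 the log2 fold changes were -0.76 and -0.53. Gene models overlapping on the same strand covered 155 exon bases of Mndal (4.3%), from Gm38050 and Ifi203, and 37 exon bases of Ifi203.

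Ifi211 (ENSMUSG00000026536.9, chr1:173896345-173913046, minus strand), within the Mndal model, had the fewest counts after Aim2. It had 0.561, 0.647 and 1.86 CPM in wild-type 1, 2 and 3 and 0.698, 0.656 and 0.234 CPM in Eda-/- 1, 2 and 3. The groups overlapped, since Eda-/- 1 and 2 were above wild-type 1 and 2. Its log2 fold change of -0.96 ± 0.45 (SE), from the fit without the filter, was -0.23 without wild-type 3. Ifi211 shared 78.9% of its 31-base words with other p200 genes, the largest share among the members. Ifi204, Mndal, Ifi205, Ifi203 and Ifi207 shared 29.4%, 25.3%, 22.1%, 20.7% and 13.7%, so their reads may also have been split with copies.

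**Figure D1:**
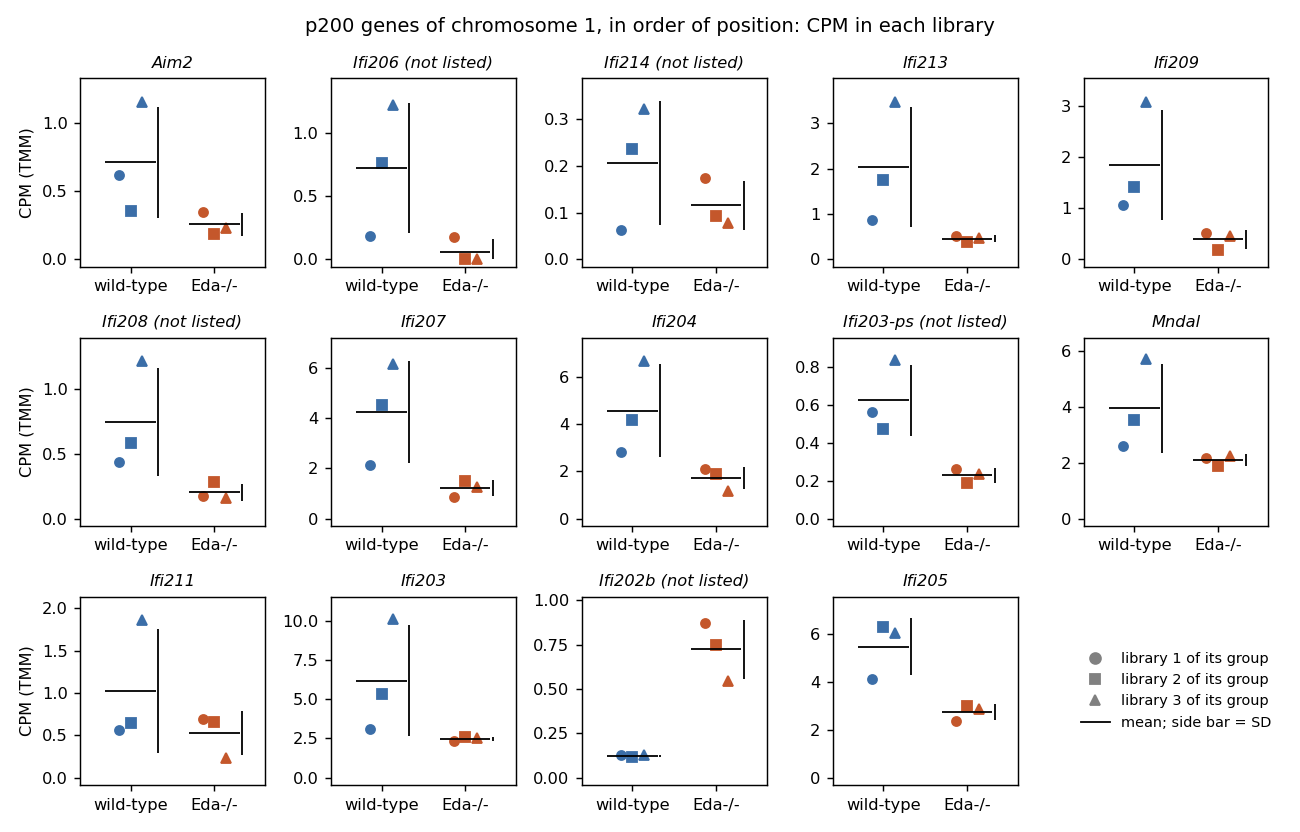
Each panel plots 1 p200 gene in order of position: CPM scaled by TMM on the vertical axis, a point for each library by genotype, a line at the mean and a side bar of 1 SD (n = 3). In 8 of the 9 members the Eda-/- points lie below the wild-type points, Ifi211 overlaps, and Ifi202b, which is no member, has the opposite order.

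The 5 p200 genes outside the list had too few counts to pass the filter of the main test. Counts of Ifi206 were 3, 13 and 19 in wild-type 1, 2 and 3 against 2, 0 and 0 in Eda-/- 1, 2 and 3, a ratio of normalised counts of 12.6 (exact binomial 95% interval 3.23 to 108.0). Ifi208 had 7, 10 and 19 counts against 2, 3 and 2, a ratio of 3.7 (1.62 to 9.84). The pseudogene Ifi203-ps had 9, 8 and 13 counts against 3, 2 and 3, a ratio of 2.7 (1.21 to 6.8). On the CPM scale these 3 genes did not overlap between genotypes and had the same direction as the members. Ifi214, with 1, 4 and 5 counts against 2, 1 and 1, overlapped.

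Ifi202b (ENSMUSG00000026535.9, chr1:173962568-173982744, minus strand), which encodes the Aim2 inhibitor, was the 1 p200 gene of 14 with higher values in Eda-/- glands. It had 2 counts in each wild-type library and 10, 8 and 7 in Eda-/- 1, 2 and 3, that is 0.125, 0.118 and 0.128 CPM against 0.873, 0.75 and 0.546 CPM. All Eda-/- values lay above all wild-type values, and the wild-type values were nearly equal, unlike those of the members. The ratio, Eda-/- over wild-type, was 5.8 (exact binomial 95% interval 2.32 to 17.3), on 25 counts against 6. It lies between Ifi203 and Ifi205, both of which had lower values in Eda-/- glands, and shared none of its 31-base words with another p200 gene. Ifi202b expression is known to differ between inbred strains, and the genetic background at this locus was not tested.

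Per kilobase of exon, Ifi205 was the most abundant member in wild-type glands at 1.31 CPM per kb, followed by Ifi204 at 1.28, Ifi207 at 1.25, Mndal at 1.09 and Ifi203 at 0.922 CPM per kb. Ifi211 at 0.573, Ifi209 at 0.522, Ifi213 at 0.297 and Aim2 at 0.203 CPM per kb followed. Each neighbour in this order overlapped the next over the 3 libraries, so no step of the order is resolved. In Eda-/- glands Ifi205 was again highest at 0.658 CPM per kb, followed by Mndal at 0.581 and Ifi204 at 0.481, and Aim2 at 0.0734 and Ifi213 at 0.0666 were lowest.

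Shares of the members' summed counts follow from the fold changes on which the members were chosen and are given as a description. Mndal made up 13.4% ± 1.1 of the members' counts in wild-type and 17.7% ± 2.27 in Eda-/- glands (SD, n = 3 each). Ifi209 went the other way, with 5.97% ± 0.969 against 3.33% ± 1.57, and so did Ifi213, with 6.33% ± 1.48 against 3.84% ± 0.696. The shares of these 3 members did not overlap between groups, those of the other 6 did, and none was tested.

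Spread within a genotype does not use the contrast between genotypes. Relative to the mean of their own group, the 7 tested members averaged -0.66, 0.0 and 0.66 on the log2 scale in wild-type 1, 2 and 3 and 0.03, -0.05 and 0.01 in Eda-/- 1, 2 and 3. In 7 of the 9 members wild-type 1 was lowest and wild-type 3 highest among wild-type libraries, as in 19.7% of all tested genes, and the exceptions were Aim2 and Ifi205. Wild-type 3 was 1.47 to 3.97 times as high as wild-type 1 over the 9 members. Interferon-response genes outside the family, such as Ifit, Oas and Gbp genes, had the same order in 54 of 57 tested genes, with group-centred means of -0.79, -0.07 and 0.86 in wild-type 1, 2 and 3.

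**Figure D2:**
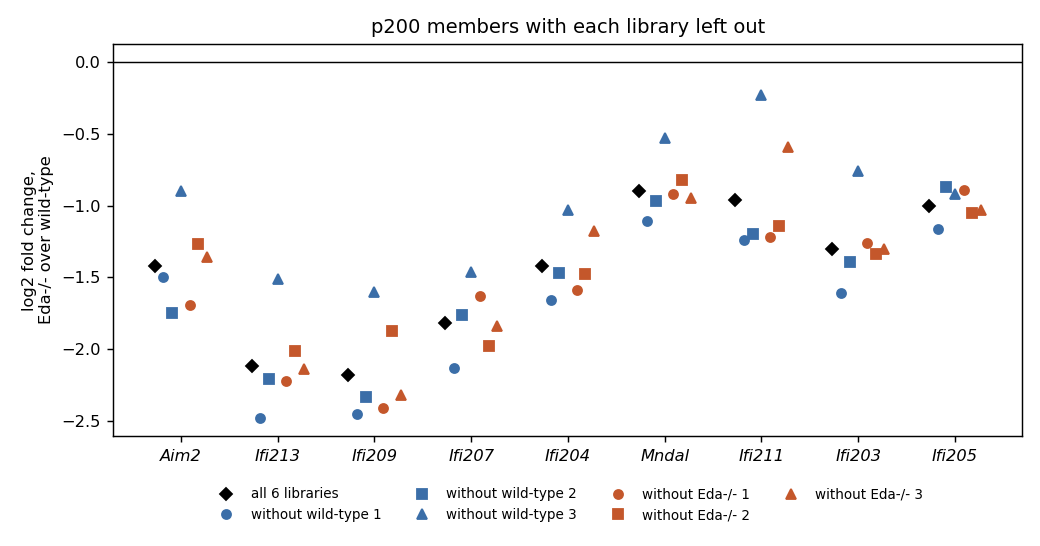
Log2 fold change of Eda-/- over wild-type (vertical axis) for each member (horizontal axis), from all 6 libraries and with each library left out. Every value lies below 0, and leaving out wild-type 3 gives the value nearest to 0 in 8 of the 9 members, Ifi205 being the exception.

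Interferon receptors and signalling genes act upstream of the family. Of 22 tested genes of interferon signalling, 1 passed as lower and 0 as higher, where 6.9% and 6.21% of all tested genes did. Their median log2 fold change was -0.21. The gene that passed was Ifngr2, a receptor chain for interferon gamma, at 8.59 ± 2.35 CPM in wild-type and 5.23 ± 0.597 CPM in Eda-/- glands (SD, n = 3 each), a log2 fold change of -0.71 ± 0.19 (SE, edgeR adjusted p = 0.0232). The list held 0 called genes by limma-voom or without any 1 of the Eda-/- libraries, and 5 called lower without wild-type 1. The interferon receptor gene Ifnar1 had a log2 fold change of -0.14 (adjusted p = 0.414). Stat2 and Irf9, which act at the response element, had log2 fold changes of -0.37 and -0.3 with overlapping groups. Ifnb1, the gene of interferon beta, had 0 counts in every library.

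Interferon-response genes outside the family had a median log2 fold change of -1.41, close to that of the members. Values were below 0 in 55 of 57 tested genes, and in 49.5% of all tested genes. Of the 57, 5 passed as lower and 0 as higher, where 6.9% and 6.21% of all tested genes did. An unadjusted edgeR p under 0.05 was found in 28 of the 57 and in 3625 of all 13178 tested genes. DESeq2 called 26 of the same 57 genes lower, and over the whole list, which holds genes outside the 57, it called 29 lower and 2 higher. Without wild-type 1, 41 were called lower by edgeR, and 15 without wild-type 3, 4 without wild-type 2, and 3, 4 and 2 without Eda-/- 1, 2 and 3. Gbp6, a guanylate-binding protein gene, had 1.6 ± 1.04 CPM in wild-type and 0.136 ± 0.122 CPM in Eda-/- glands (SD, n = 3 each), a log2 fold change of -3.4 ± 0.74 (SE, edgeR adjusted p = 0.0137). It held 2, 0 and 3 counts in Eda-/- 1, 2 and 3. Gbp6 therefore passed the filter through its wild-type libraries alone and could only appear as lower. Trim30a fell by 1.67 ± 0.39 (SE) on the log2 scale (adjusted p = 0.0263). Epsti1 and Oasl1, an oligoadenylate synthetase-like gene, had log2 fold changes of -1.73 and -1.89 (adjusted p = 0.0135 and 0.0405). In Eda-/- 1, 2 and 3 Epsti1 held 10, 5 and 3 counts and Oasl1 held 9, 3 and 7. Both genes thus also needed their wild-type libraries to pass the filter, so their calls carry the same limit. Irf7, the interferon-induced regulator of type I interferon genes, had a log2 fold change of -2.29 ± 0.8 (SE) and did not pass (adjusted p = 0.166). The list's summed level was 309.0, 467.0 and 797.0 CPM in wild-type 1, 2 and 3 and 341.0, 383.0 and 265.0 CPM in Eda-/- 1, 2 and 3. These sums, which give most weight to the genes with the highest CPM, overlapped, while those of the members did not. As mean log2 CPM relative to the wild-type mean, the tested genes had -0.79, -0.07 and 0.86 in wild-type 1, 2 and 3. In Eda-/- 1, 2 and 3 they had -0.96, -1.02 and -1.36, so on this scale the groups did not overlap, as for the members.

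Genes of DNA sensing and of the inflammasome, the processes in which Aim2 and Ifi204 act, had a median log2 fold change of -0.15 over 23 tested genes. Of these, 1 was called lower and 0 higher, beside 6.9% and 6.21% of all tested genes. The gene called lower was Samhd1, which hydrolyses deoxynucleotides. It had 18.2 ± 3.77 CPM in wild-type and 10.9 ± 2.16 CPM in Eda-/- glands (SD, n = 3 each), a log2 fold change of -0.75 ± 0.18 (SE, edgeR adjusted p = 0.021). No gene of the list was called without wild-type 2, Eda-/- 1 or Eda-/- 3. Pycard, the adaptor that Aim2 recruits, had 41.4 ± 2.17 and 38.4 ± 6.89 CPM with a log2 fold change of -0.1 ± 0.11 (SE, adjusted p = 0.59), a difference within the spread of the libraries. Casp1, Gsdmd, Tmem173 (the gene of STING) and Cgas had log2 fold changes of -0.6, -0.44, -0.28 and -0.16, and none of these passed. Il1b and Il18, whose products Casp1 cleaves, had too few counts to be tested.

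Of 21 tested macrophage markers, 9 passed as lower and 0 as higher, where 6.9% and 6.21% of all tested genes did. Their median log2 fold change was -1.2. Tyrobp, a signalling adaptor of myeloid cells, fell by 1.71 ± 0.34 (SE) on the log2 scale (edgeR adjusted p = 0.00391), and the growth factor receptor gene Csf1r fell by 1.01 ± 0.19 (SE, adjusted p = 0.00591). The summed level of the list ranged from 150.0 to 269.0 CPM in wild-type and from 82.8 to 94.5 CPM in Eda-/- glands, and no defining marker was at 0. Relative to the wild-type mean the markers averaged -0.26, -0.26 and 0.52 on the log2 scale in wild-type 1, 2 and 3, where the members averaged -0.66, 0.0 and 0.66, and 10 of 21 markers were lowest in wild-type 1 and highest in wild-type 3. The count of markers called lower was 4, 6 and 3 without Eda-/- 1, 2 and 3. The part of macrophage content in the members' values was not tested.

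Dendritic cell and antigen presentation genes also had lower values, with 4 of 9 tested genes called lower, 0 higher and a median log2 fold change of -1.19. The shares over all tested genes were 6.9% called lower and 6.21% higher. H2-Aa, a class II histocompatibility gene, fell by 1.34 ± 0.19 (SE) on the log2 scale (edgeR adjusted p = 0.00452). The list's sum ranged from 108.0 to 193.0 CPM in wild-type and from 58.0 to 76.7 CPM in Eda-/- glands. Without Eda-/- 1 the count called lower was 0, and without wild-type 1 or 3 it was 7. Markers of T and NK cells summed to 4.3 to 6.87 CPM in wild-type and 2.34 to 3.75 CPM in Eda-/- glands, with at most 3 counts of Cd8a in any library. Neutrophil markers summed to 0.686 to 1.16 and 0.187 to 0.698 CPM. B and plasma cell genes went the other way, with sums of 33.4 to 133.0 CPM in wild-type and 128.0 to 321.0 CPM in Eda-/- glands, carried by immunoglobulin genes, while Cd79a and Ms4a1 held at most 3 counts in any library. Of the T and NK, B and plasma cell genes tested, 0 passed in either direction, and no neutrophil marker was tested. The part of these cell types in the members' values was not tested.

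Of 11 tested lacrimal acinar genes, 7 had values below 0, as did 49.5% of all tested genes, with a median log2 fold change of -0.09. Of the 11, 2 were called higher and 0 lower, where 6.21% and 6.9% of all tested genes were. Bhlha15, a transcription factor of secretory cells, had 340.0 ± 14.7 CPM in wild-type and 435.0 ± 27.4 CPM in Eda-/- glands (SD, n = 3 each), a log2 fold change of 0.36 ± 0.08 (SE, edgeR adjusted p = 0.00694). The secretoglobin gene Scgb2b24 had a log2 fold change of 0.5 ± 0.08 (SE, adjusted p = 0.000406). Among acinar markers that did not pass, Slc12a2 had -0.48 ± 0.23 (SE) with no overlap between groups, and Chrm3 had -0.13. Aqp5 and Rab3d had 0.23 and 0.11.

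**Figure D3:**
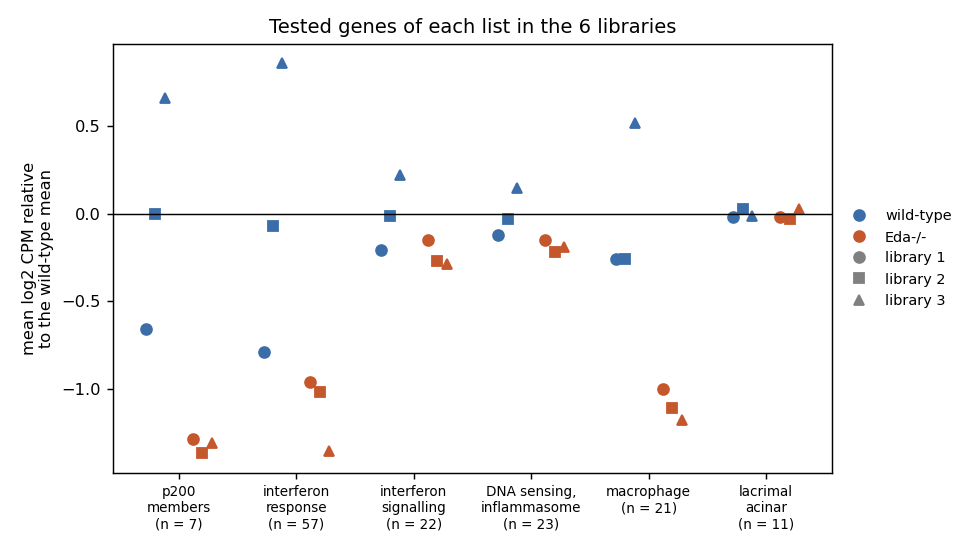
Mean log2 CPM of the tested genes of each list relative to the wild-type mean (vertical axis), with a point for each library and n the number of genes. The members lie at -0.66, 0.0 and 0.66 in wild-type 1, 2 and 3 and between -1.37 and -1.29 in Eda-/- glands, and the acinar genes lie near 0 in all 6 libraries.

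By position, the tested genes nearest to the cluster had log2 fold changes closer to 0 than any member. Cadm3, whose model overlaps that of Aim2, had 1.36 CPM in wild-type and 1.29 CPM in Eda-/- glands on average, a log2 fold change of -0.08 ± 0.28 (SE, edgeR adjusted p = 0.891). To the left of the cluster, the nearest tested genes were Dusp23 at 717.9 kb, 4933439K11Rik at 792.8 kb and Tagln2 at 843.5 kb, with log2 fold changes of 0.27, 0.21 and -0.25. To the right, Fh1 at 1568.6 kb and Chml at 1650.4 kb had 0.17 and -0.42. Of 27 tested genes outside the family and within 2 Mb, 3 were called lower and 0 higher, with a median log2 fold change of -0.08. Among all tested genes 6.9% were called lower and 6.21% higher. The 3 genes were Arhgap30 (-1.02, adjusted p = 0.0156) and the immune cell receptor genes Slamf7 (-1.03, adjusted p = 0.0318) and Cd84 (-1.53, adjusted p = 0.00151), all in the left flank. The count called lower was 1 without wild-type 3, Eda-/- 2 or Eda-/- 3 and 5 without wild-type 1, and 10 with library totals as the scaling. Over chromosome 1, 77 of 856 tested genes were called lower and 22 higher, with a median of -0.06.

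**Figure D4:**
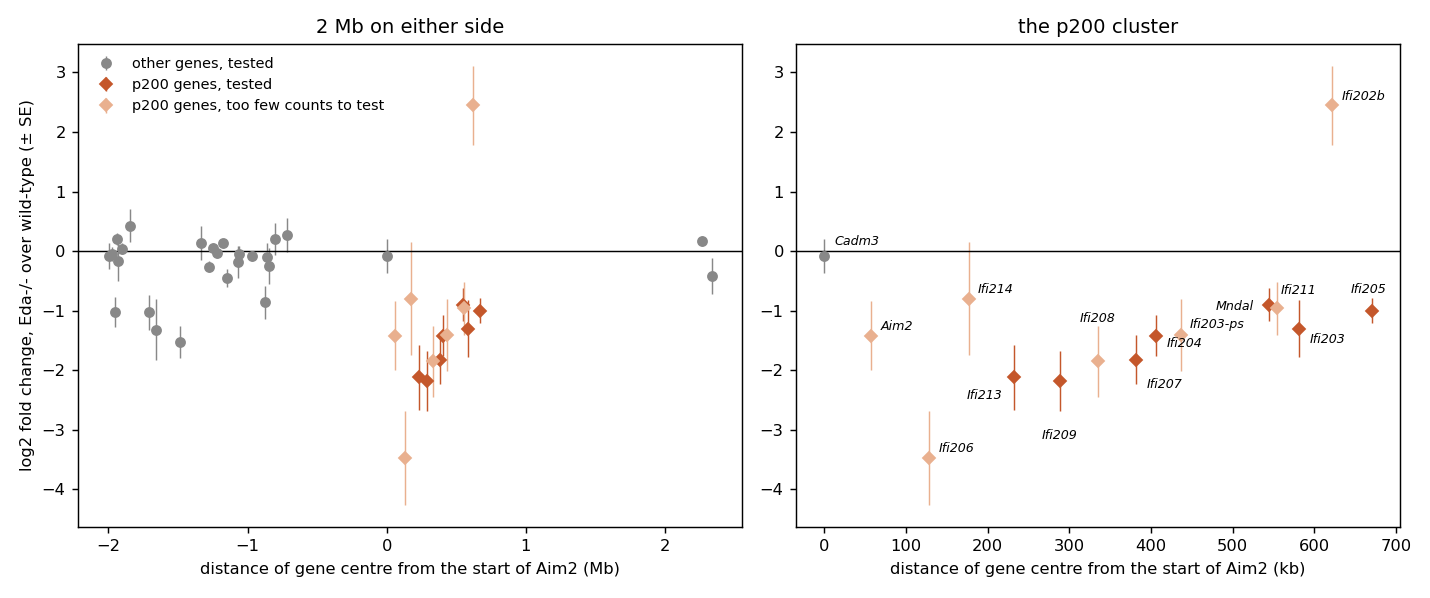
Log2 fold change of Eda-/- over wild-type with its SE (vertical axes) against the distance of each gene's centre from the start of Aim2 (horizontal axes), over the cluster with 2 Mb on either side and over the cluster alone. p200 genes with too few counts for the test are drawn lighter with their fitted values. Cadm3 sits at -0.08, the members between -2.18 and -0.9, and Ifi202b at 2.45.

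Outside the family, the genes whose profile over the 6 libraries was most like the mean of the tested members were chosen among 12188 genes with a mean of at least 1 CPM, by the root mean square difference of centred log2 CPM. They were Hcls1 (difference 0.13), C3ar1 (0.14), Uba7 (0.15), Lgals3bp (0.16) and Ctss (0.16). Hcls1 encodes an actin-binding protein of blood cells, C3ar1 a complement receptor, Uba7 the enzyme that activates Isg15, and Ctss a protease of antigen-presenting cells; Lgals3bp and Ctss are also on the interferon-response and macrophage lists. Hcls1 had 1.68, 2.18 and 4.36 CPM in wild-type 1, 2 and 3 and 0.873, 1.03 and 0.936 CPM in Eda-/- 1, 2 and 3. Like the members, it was highest in wild-type 3 and even among the mutants. Since the likeness covers both genotypes, the log2 fold changes of these genes, from -1.69 to -1.34, follow from the way they were chosen.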

How the data were processed

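RNA-seq counts of 6 lacrimal gland libraries, 3 per genotype, were analysed. The authors deposited raw counts per gene, 1 column per sample. Directional libraries were made after ribosomal RNA removal, per the labels' protocols. STAR, featureCounts and the GRCm38.p5 build are named, beside bcl2fastq, Trimmomatic and DESeq2, per the submitters' processing notes. Tool versions, annotation release, strand setting and handling of multi-mapped reads were not given in the sources used here, so overlapping genes and near copies are uncertain.

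Columns were matched to samples by name, with 0 left unmatched. Gene models came from GENCODE M21 (50462 identifiers matched, 224 did not). The test was that of edgeR 4.0.16 (R 4.3.3, limma 3.58.1): filterByExpr defaults (minimum count 10, about 0.71 CPM at the median library), TMM scaling, genotype alone, robust quasi-likelihood, two-sided. SE is the absolute log2 fold change over the square root of F. CPM are TMM-scaled, and CPM per kb uses the union of exons. List profiles used log2 CPM with a prior count of 2. The common coefficient of biological variation was 0.103. The edgeR step was also tested on simulated counts.

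Members and lists were chosen with earlier results of these data known. Named genes were the members, other p200 genes of the cluster, from each list up to 4 genes that passed, by p (otherwise the 3 with the highest mean), the 3 nearest tested neighbours on each side, the 5 most alike profiles, and Eda. Pathway genes and markers that did not pass, Aqp5, Arhgap30, Slamf7 and Cd84 were added after values were seen. Alternatives were DESeq2 1.42.0, limma-voom, other filters and scalings, a replicate block and each library left out. Some genes of the lists are not reported here by name.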

Additional observations from a re-analysis of the deposited data

How the results depend on the processing

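Over 13 alternatives, 0 of 117 log2 fold changes of the 9 members changed sign, and none of the 14 p200 genes changed sign. All alternatives draw on the same 6 libraries, so they are not independent of each other. Sizes did move, with Ifi211 between -1.24 and -0.23, Ifi213 between -2.48 and -1.51 and Ifi205 between -1.28 and -0.87. Without single libraries the members' median was -1.61 to -0.92 (-0.92 without wild-type 3), and 1 to 7 members stood past the threshold. Members' calls also differed by tool: DESeq2 called 6, among them Ifi203 and not Mndal, edgeR without a filter called 7, limma-voom called 4, without Ifi213 and Mndal, and the stricter filter left 5, with Ifi213 not tested. Library totals shifted the median of all genes to -0.28. Under library totals, 246 genes were called higher and 4365 lower, with 21 interferon-response, 9 interferon-signalling, 9 DNA-sensing, 20 macrophage, 8 dendritic and 10 neighbouring genes called lower. DESeq2 called 595 genes lower, 2 signalling genes lower, and 29 interferon-response genes lower and 2 higher. limma-voom called 1 interferon-response gene higher and 0 signalling genes lower. Without a filter, 35 interferon-response genes were called lower and 2 higher, with 4 signalling, 16 macrophage and 6 neighbouring genes lower, and a stricter filter left 3 interferon-response genes lower. Leaving out single libraries gave 561 to 677 genes higher and 599 to 834 lower, 2 to 41 interferon-response genes lower and 0 to 1 higher, 0 to 5 signalling, 0 to 1 DNA-sensing, 3 to 12 macrophage, 0 to 7 dendritic and 1 to 5 neighbouring genes lower. The causes were not tested. With a replicate block, 7 members stood past the threshold, Ifi203 included, and 15 interferon-response, 2 signalling and 0 DNA-sensing genes were called lower. Libraries with the same replicate number did not deviate together over all tested genes (correlations -0.04, 0.02 and -0.09). Whether the numbers pair the samples is not given in the sources used here, and these correlations cannot decide it. Depth limited Aim2, Ifi211 and the 5 p200 genes outside the list, which had too few counts to pass the filter of the main test. Outside the list, edgeR without a filter called Ifi206 and Ifi208 lower and Ifi202b higher, and DESeq2 called none of them.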
